A study of Homo sapiens with 12 samples.

Results

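The mitosis and G2/M genes are 46 genes whose products take a cell from the end of DNA replication through chromosome segregation to cytokinesis. Members were the gene probes whose RefSeq accession belongs to a symbol on a list of mitosis genes; the choice uses no threshold on a measured value, although the list was drawn up with earlier results of these data known. A probe was found for 45 of the 46 symbols, all 45 passed the filter on dim probes, and they stand beside 11592 named genes tested in all. UBE2C, the ubiquitin-conjugating enzyme of the anaphase-promoting complex, had no probe named through RefSeq and is not analysed here.

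The genes were measured on 12 one-color Agilent 44 k arrays of H358/Tet-On/SRSF2 cells, a single clone of the H358 lung carcinoma line with the splicing factor SRSF2 under a Tet-responsive promoter. There were 6 arrays labelled control and 6 labelled SRSF2 over-expression, and an induction time of 24 hours is listed for both. Doxycycline was added at 1 µg/mL for the arrays labelled SRSF2 over-expression. No doxycycline or other treatment is named for the controls in the sources used here. The arrays lay on 3 slides with 2 arrays of each condition per slide, and the study describes 2 arrays for each labelling, so that p-values measure the spread between arrays, part of which is technical. The sample labels do not say which arrays shared a labelling. All 6 epithelial markers tested were well above background on at least 11 of 12 arrays, and 4 of 4 fibroblast markers with a probe were so on none. Of the immune and endothelial markers, 2 of 5 and 1 of 4 were well above background on all arrays, and PTPRC, CDH5 and KDR were so on none.

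SRSF2 itself went against its label. Its probe, well above background on all 12 arrays, read 3.74 at the lowest, 3.96 at the median and 4.03 at the highest on the control arrays, on a log2 scale in which 0 is the array's 75th percentile, the scale of every level given here. On the arrays labelled SRSF2 over-expression it read 2.29, 2.51 and 2.56. The signal was thus 2.75-fold lower there (log2 difference -1.46 ± 0.06 SE, limma adjusted p = 1.68e-09, n = 6 arrays each). Where this probe lies relative to the transgene is not known here, so directions are given between arrays by their labels, and not as effects of a measured gain of SRSF2.

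Entry into mitosis is driven by CDK1 bound to cyclins A and B, which CDC25 phosphatases switch on and Polo-like and Aurora kinases support. Kinetochores, built on the centromeric histone CENPA, then attach chromosomes to the spindle while the spindle checkpoint proteins MAD2, BUB1, BUBR1 and BUB3 hold back the anaphase-promoting complex and its activator CDC20. Kinesins and bundling proteins such as PRC1 shape the spindle and its midzone, where cytokinesis begins. Many of these genes are transcribed in G2 and M through a pair of promoter elements, the CHR element and CCAAT boxes.

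Those elements were looked for in the RefSeq promoter table (GRCh38.p14), which held 38 of the members. A promoter was 250 bases before and 50 after a listed start. Some genes had several, such as CDC25B and CDC25C with 4 each. A gene was counted if any of its promoters held the letters. The letters TTTGAA or TTCGAA of the CHR element, on either strand, occurred in 30 of 38 members (78.9%) and in 19.5% of the 27305 genes of the table. CCAAT, on either strand, occurred in 32 of 38 (84.2%) against 39.7% of all genes, and at least 2 matches in 1 promoter in 55.3% against 12.9%. The E2F letters TTTCCCGC, TTTGGCGC or TTTCGCGC occurred in 3 members (CDK1, CENPA and NUSAP1; 7.89% against 3.3%). Matches of different elements can overlap, and a match is a stretch of letters and not a shown binding site. Below are the 160 bases before the start, 5′ to 3′, for 3 members that were up-regulated, 3 that were down-regulated and CCNB2, whose values did not separate, shown because promoters with the same elements belong to all 3 kinds. Capitals mark CHR letters (TTTGAA, or TTCAAA on the other strand), CCAAT or its reverse ATTGG.
KIF18A (chr11:28108157-28108316, minus strand): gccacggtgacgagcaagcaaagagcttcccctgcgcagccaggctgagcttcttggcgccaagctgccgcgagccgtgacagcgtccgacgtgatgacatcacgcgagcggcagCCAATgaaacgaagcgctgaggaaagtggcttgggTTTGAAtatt
DLGAP5 (chr14:55191586-55191745, minus strand): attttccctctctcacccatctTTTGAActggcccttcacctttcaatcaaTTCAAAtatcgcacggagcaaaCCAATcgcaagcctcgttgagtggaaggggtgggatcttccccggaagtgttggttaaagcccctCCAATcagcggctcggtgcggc
CENPA (chr2:26785896-26786055, plus strand): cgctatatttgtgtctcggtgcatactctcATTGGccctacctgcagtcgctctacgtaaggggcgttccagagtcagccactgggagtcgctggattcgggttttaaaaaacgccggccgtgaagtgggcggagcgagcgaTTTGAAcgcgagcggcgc
PRC1 (chr15:90994536-90994695, minus strand): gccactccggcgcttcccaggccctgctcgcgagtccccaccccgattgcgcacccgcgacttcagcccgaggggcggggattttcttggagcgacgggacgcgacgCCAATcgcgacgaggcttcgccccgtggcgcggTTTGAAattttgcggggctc
PLK1 (chr16:23678729-23678888, plus strand): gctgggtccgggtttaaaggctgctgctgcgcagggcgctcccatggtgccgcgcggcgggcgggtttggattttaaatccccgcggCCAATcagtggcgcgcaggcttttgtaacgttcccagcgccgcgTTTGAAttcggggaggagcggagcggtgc
KIF4A (chrX:70289944-70290103, plus strand): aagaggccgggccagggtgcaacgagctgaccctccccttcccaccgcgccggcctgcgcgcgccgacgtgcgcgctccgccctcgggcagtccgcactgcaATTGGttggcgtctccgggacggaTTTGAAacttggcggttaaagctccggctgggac
CCNB2 (chr15:59104986-59105145, plus strand): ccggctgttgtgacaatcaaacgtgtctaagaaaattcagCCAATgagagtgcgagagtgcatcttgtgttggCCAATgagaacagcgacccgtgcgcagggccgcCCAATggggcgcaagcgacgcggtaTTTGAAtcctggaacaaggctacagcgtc

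In the printed stretches, the CHR letters nearest to the start began 10 bases before it in KIF18A, 18 in CENPA, 20 in PRC1, 29 in PLK1 and CCNB2, and 34 in KIF4A. In DLGAP5 the nearest lay 109 bases before it. The 30 members with CHR letters had 16 genes higher, 7 lower and 7 that did not pass, with a median log2 difference of 0.17. The 8 without had 5 higher and 3 that did not pass, with a median of 0.37. Of all named genes, 30.5% were higher and 30.2% lower. A promoter without these letters is not shown to lack the element, so the groups differ by letters only and no difference between them was tested.

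Between the conditions, 26 of the 45 genes were up-regulated on the arrays labelled SRSF2 over-expression and 8 were down-regulated (limma, adjusted p no higher than 0.05), while 11 did not pass. The array-wide background was high: 30.5% of named genes were called higher and 30.2% lower, against 57.8% and 17.8% of the mitosis genes. The median log2 difference of the 45 genes was 0.23 (quartiles 0.06 and 0.53) and that of all named genes was -0.00. The signal was also scaled on 7 spike-in controls in place of the 75th percentile. The median of all named genes itself then moved to 0.24 and that of the mitosis genes to 0.47. Of the mitosis genes, 17 were then higher and 1 lower (21.6% and 5.39% of named genes). Both scalings subtract 1 constant per array, which moves every gene alike. The gap of 0.24 between the medians is therefore the same under both by construction and is no separate result. With slide 1 left out, spike-in scaling gave medians of 0.04 for all named genes and 0.24 for the mitosis genes, a gap of 0.20, so most of the shift of all genes rested on that slide. Under none of the scalings did a called member turn direction.

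**Figure D1:**
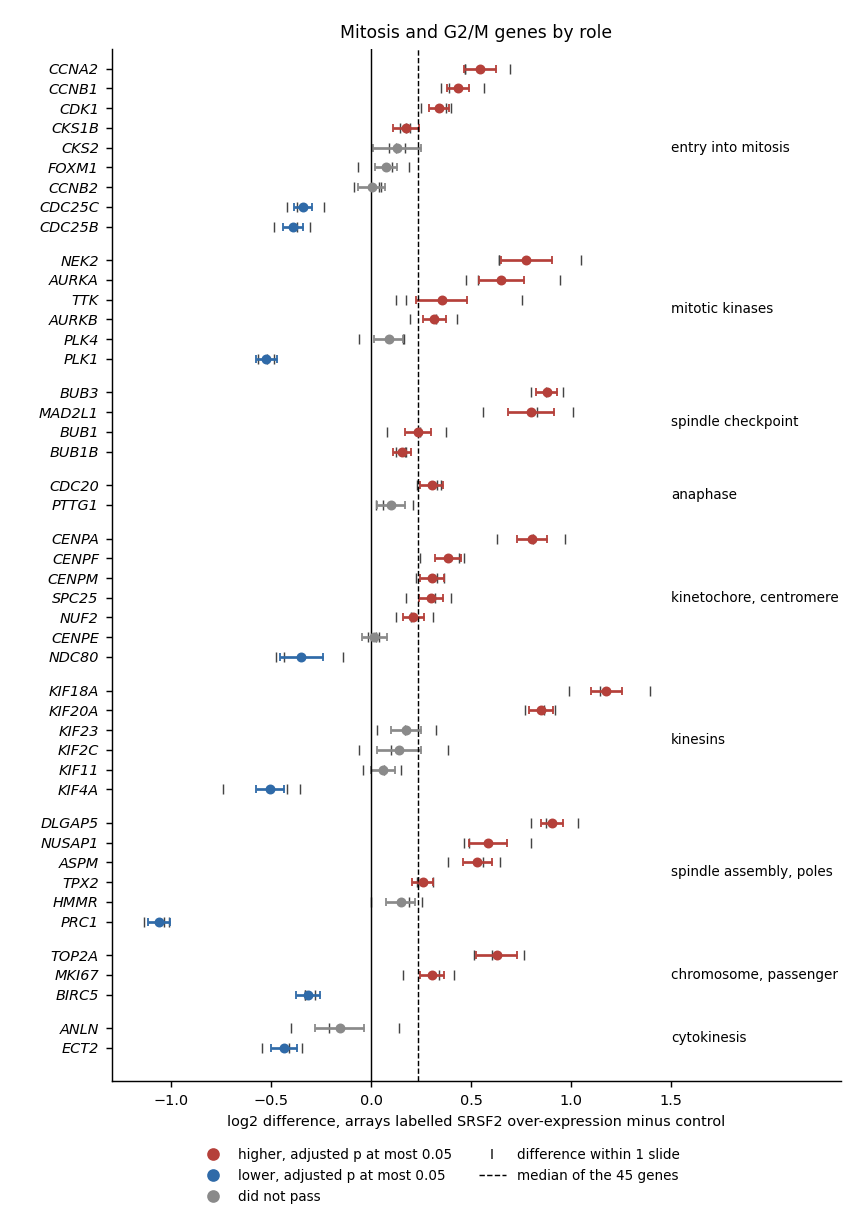
Log2 difference (arrays labelled SRSF2 over-expression minus control, ± SE, n = 6 arrays each) of the 45 mitosis and G2/M genes by role, with the difference within each of the 3 slides as a tick and the median of the 45 genes, 0.23, as a dashed line. KIF18A (1.18) and PRC1 (-1.06) mark the ends of the range.

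Most differences were small. Only KIF18A rose at least 2-fold and only PRC1 fell that far, beside 2.34% and 2.92% of named genes. At 1.5-fold, 9 of the 45 members were higher (background 9.76%) and 1 was lower (2.22%, background 11.1%). The 12 arrays separated completely by condition for 23 genes that were higher and 7 that were lower (background 22.2% and 21.3% of named genes). For each of those 30 genes an exact two-sided permutation test gave p = 0.00216, the smallest that 924 arrangements of 6 arrays against 6 allow; with 3 labellings per condition the smallest would be 0.1.

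The shift was present on each slide. Within slide 1 the median difference of the 45 genes was 0.24, within slide 2 it was 0.17 and within slide 3 it was 0.23, with 35, 33 and 34 genes above 0. All named genes had medians of 0.01, 0.01 and -0.02 on the same slides. Of the 45 genes, 37 had the same sign on all 3 slides, among them all 34 called genes. The share of all named genes with the same sign on all 3 slides is not given here, so the 37 have no background. The calls came from these same arrays, which makes a shared sign likely for the called genes. Averaged over the 45 genes, the deviation from each gene's own mean ranged from -0.16 to -0.09 over the control arrays, with a median of -0.10, and from 0.03 to 0.20 over the others, with a median of 0.13.

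**Figure D2:**
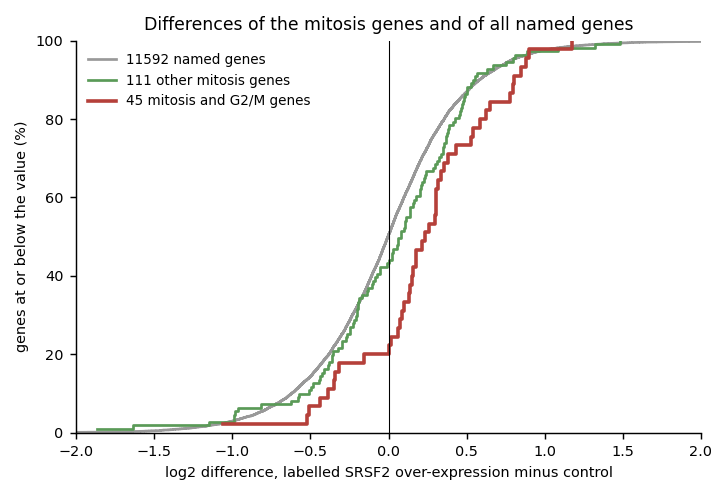
Cumulative share (%) of genes at or below a log2 difference, for the 45 mitosis and G2/M genes, 111 genes of 6 other mitosis lists and all 11592 named genes. The curve of the 45 genes lies to the right of the others through the middle of the range, with medians of 0.23, 0.08 and -0.00.

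Among the genes of mitotic entry, CCNA2, CCNB1 and CDK1 were higher and both CDC25 phosphatases lower. CCNA2, the cyclin of S phase and G2, read 0.78, 0.96 and 1.12 (lowest, median and highest) on control arrays and 1.38, 1.43 and 1.76 on the others, a 1.46-fold rise (log2 0.54 ± 0.08 SE, limma adjusted p = 8.26e-05). CCNB1, whose product activates CDK1 at mitotic entry, rose 1.35-fold and CDK1, the kinase itself, 1.27-fold. CDC25B, the phosphatase that starts CDK1 activation, read 2.18, 2.26 and 2.29 on control arrays and 1.75, 1.83 and 1.99 on the others, a 1.31-fold fall (log2 -0.39 ± 0.05, adjusted p = 2.4e-05). CDC25C, which acts at the G2/M transition, fell 1.27-fold. None of these 5 genes had overlapping conditions, and both CDC25 genes lost the call under spike-in scaling while staying below 0 (-0.15 for CDC25B and -0.10 for CDC25C). CKS1B, a CDK-binding subunit with near-identical processed copies in the genome, had a log2 difference of 0.17 (adjusted p = 0.0365) with overlapping arrays, and passed in only 8 of the 23 settings run, the reported fit included; among others, the call was lost with median scaling, with the authors' table and with any slide left out. CCNB2 (0.00), CKS2 (0.13) and FOXM1 (0.07), the transcription factor of many G2/M genes, did not pass. CKS2 passed with the slide as a block on single arrays (limma adjusted p = 0.00154). It did not pass with that block on averages of the 2 arrays of a condition per slide (limma adjusted p = 0.164).

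Of the 6 mitotic kinases, 4 were higher and PLK1 was lower. NEK2, a kinase that splits the centrosomes, read -0.79, -0.53 and -0.44 on control arrays and -0.16, 0.13 and 0.60 on the others, 1.71-fold higher (log2 0.78 ± 0.13, adjusted p = 0.000192), and its second probe gave 0.97. PLK1, needed for mitotic entry and spindle function, read 3.95, 4.03 and 4.09 on control arrays and 3.44, 3.46 and 3.65 on the others, 1.44-fold lower (log2 -0.53 ± 0.05, adjusted p = 1.97e-06). A second PLK1 probe gave -0.55, and neither probe had overlapping conditions. Under spike-in scaling the PLK1 difference was -0.28 (adjusted p = 0.352). AURKA, the centrosomal Aurora kinase, rose 1.57-fold and AURKB, the kinase of the passenger complex, 1.24-fold. TTK, the MPS1 kinase of the checkpoint, had a difference of 0.35 with overlapping arrays (adjusted p = 0.0315). That call was lost without control array 2 (log2 0.27, adjusted p = 0.0576) and with the mean of 2 arrays as 1 replicate. PLK4, the kinase of centriole duplication, did not pass on its brighter probe (0.09), while a dimmer probe, well above background on 3 of 6 control arrays and 5 of 6 others, passed the filter only through the condition in which it was brighter and is given no difference here.

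All 4 spindle checkpoint genes were higher over the 6 arrays per condition. BUB3 and MAD2L1 remained so when the 2 arrays of a condition per slide were averaged into 1 replicate. MAD2L1, the gene of the checkpoint effector MAD2, read 3.02, 3.26 and 3.34 on control arrays and 3.79, 3.86 and 4.36 on the others, 1.74-fold higher (log2 0.80 ± 0.11, adjusted p = 6.06e-05), with no overlap. BUB1 (0.23) and BUB1B (0.15), the genes of the checkpoint kinase BUB1 and of BUBR1, were slightly up-regulated. Both of those calls were lost when slide 3 was left out and with the mean of 2 arrays as 1 replicate (adjusted p = 0.102 for BUB1 and 0.175 for BUB1B, and 0.0616 and 0.104 with the slide as a block). BUB3, which carries BUB1 and BUBR1 to kinetochores, was read by 3 probes that did not move together. The brightest, A_23_P202316, read 3.01, 3.03 and 3.13 on control arrays and 3.78, 3.96 and 4.02 on the others, 1.84-fold higher (log2 0.88 ± 0.05, adjusted p = 2.43e-08). A_23_P46924, which carries the same RefSeq accession, gave 0.98. A_23_P320658, which carries the accession of another BUB3 transcript, read 0.36, 0.72 and 0.86 on control arrays and -0.32, -0.19 and 0.44 on the others, 1.59-fold lower (log2 -0.67 ± 0.16, adjusted p = 0.00271). Its conditions overlapped: the higher values of the second condition, both from slide 2, lay above the control values of slide 3. Under spike-in scaling this fall did not pass (-0.42, adjusted p = 0.131).

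**Figure D3:**
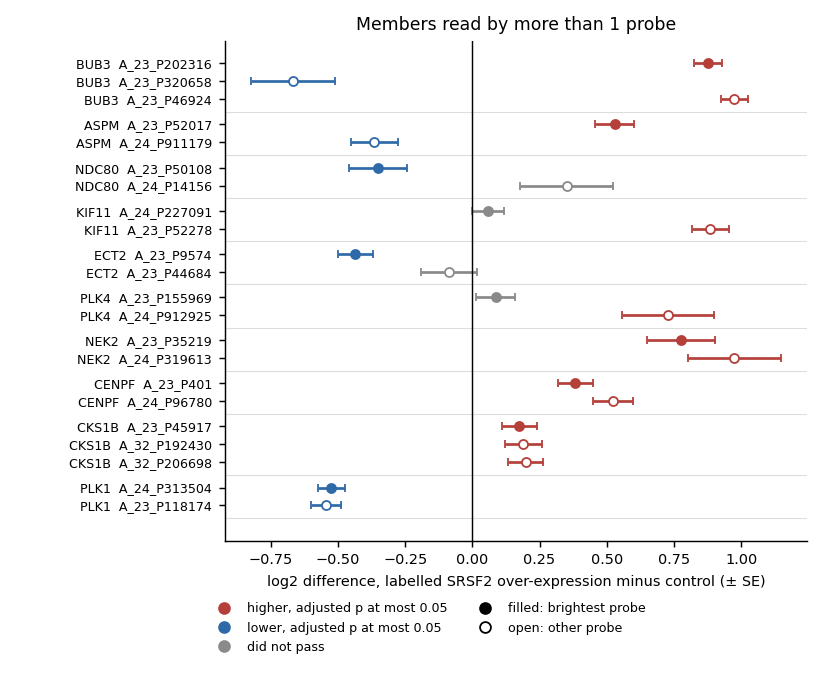
Log2 difference (± SE, n = 6 arrays each, less spots marked as outliers) of each tested probe of the 10 members read by more than 1 probe, the brightest filled. The probes of BUB3 and of ASPM lie on both sides of 0, those of KIF11 at 0.06 and 0.89, and those of NEK2, CENPF, CKS1B and PLK1 on the same side. The open PLK4 probe was well above background on 3 of 6 control arrays, so its point has no reliable control level.

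Of the 2 anaphase genes measured, CDC20 was higher. It read 2.92, 3.00 and 3.13 on control arrays and 3.18, 3.35 and 3.45 on the others, 1.23-fold higher (log2 0.30 ± 0.06, adjusted p = 0.000609), and its arrays did not overlap. PTTG1, the gene of securin, which has close copies in the genome, did not pass (0.10, adjusted p = 0.25).

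Among the kinetochore and centromere genes, 5 were higher and NDC80 was lower. CENPA, the histone H3 variant of centromeres, read -0.04, -0.00 and 0.08 on control arrays and 0.62, 0.78 and 1.07 on the others, 1.75-fold higher (log2 0.80 ± 0.08, adjusted p = 1.36e-06). CENPF, a large kinetochore protein of G2, rose by 0.38 on its brighter probe and 0.52 on the other, and CENPM, of the inner kinetochore, by 0.30. CENPE, the kinetochore motor, did not pass (0.02). The NDC80 complex holds microtubule ends, and its measured members differed in direction. NUF2 (0.21) and SPC25 (0.30) were higher without overlap, and both calls were lost with the mean of 2 arrays as 1 replicate. NDC80 read 2.07, 2.62 and 2.82 on control arrays and 2.10, 2.22 and 2.38 on the others, 1.27-fold lower (log2 -0.35 ± 0.11, adjusted p = 0.0141), and the lowest value of all was a control array. Its dimmer probe went the other way without passing (0.35, adjusted p = 0.106). The call for NDC80 was lost without slide 2, without slide 3 and with the mean over its probes (-0.03).

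The kinesins held the largest rise of the list. KIF18A, the motor that damps chromosome movements at the plus ends of kinetochore microtubules, read -1.73, -1.64 and -1.59 on control arrays and -0.65, -0.54 and -0.23 on the others, 2.26-fold higher (log2 1.18 ± 0.08, adjusted p = 6.28e-08). With normexp background correction it was 0.60 and did not pass (adjusted p = 0.0963). KIF20A, the midzone motor MKLP2, read 0.26, 0.44 and 0.53 on control arrays and 1.20, 1.22 and 1.42 on the others, 1.80-fold higher (log2 0.85 ± 0.06, adjusted p = 1.22e-07). Both genes had wide gaps between the conditions. KIF4A, the chromokinesin that PRC1 recruits to the midzone, read 1.85, 2.05 and 2.09 on control arrays and 1.31, 1.56 and 1.63 on the others, 1.42-fold lower (log2 -0.51 ± 0.07, adjusted p = 3.82e-05). KIF23 (0.17), of the centralspindlin complex, KIF2C (0.14), a microtubule depolymerase, and KIF11 (0.06), the motor that separates spindle poles, did not pass. KIF11 was read by a second, dimmer probe that did not overlap between conditions and gave 0.89 (adjusted p = 3.01e-07). Averaged over their probes, KIF11 and PLK4 passed, the latter with the dim probe included, whereas ASPM (0.08, adjusted p = 0.0915) and NDC80 did not.

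**Figure D4:**
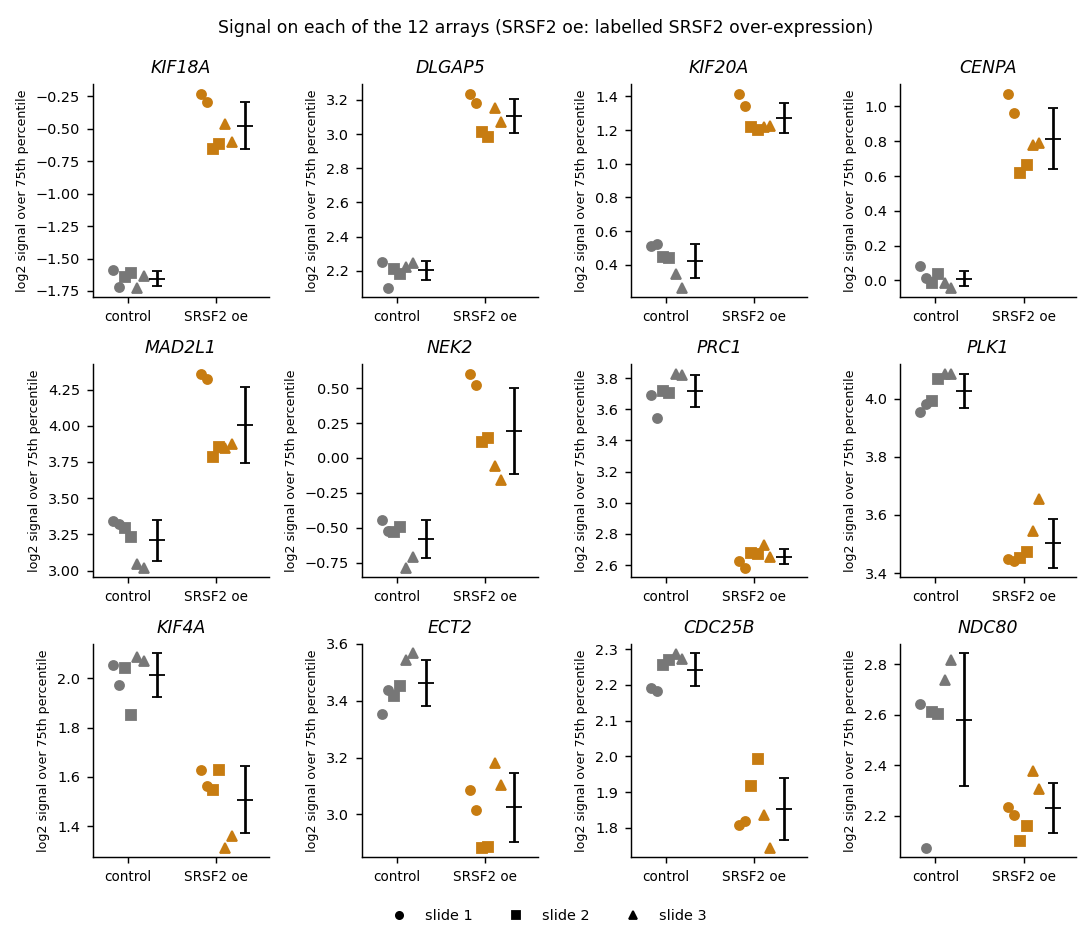
Log2 signal over the array's 75th percentile on each of the 12 arrays for 12 members, with the slide as the symbol and the mean ± SD of each condition (n = 6 arrays). The conditions are apart in every gene but NDC80, where control array 2 (2.07) lies below all other arrays.

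PRC1 showed the largest fall. Its product cross-links antiparallel microtubules at the spindle midzone. On control arrays its probe read 3.54, 3.71 and 3.83, and on the others 2.58, 2.66 and 2.73, which is 2.09-fold lower (log2 -1.06 ± 0.05, adjusted p = 7.78e-09), with differences of -1.01, -1.04 and -1.14 within the 3 slides. It was the only member to pass as lower under spike-in scaling with all slides (-0.82, adjusted p = 0.00503). DLGAP5, a spindle assembly factor also named HURP, read 2.10, 2.22 and 2.25 on control arrays and 2.98, 3.11 and 3.24 on the others, 1.87-fold higher (log2 0.90 ± 0.06, adjusted p = 2.96e-08). NUSAP1, a microtubule-binding protein, rose by 0.58 on the log2 scale and TPX2, the activator of AURKA, by 0.26, both without overlap; the TPX2 call was lost with the mean of 2 arrays as 1 replicate. HMMR did not pass (0.15). ASPM, a spindle pole protein, was read by a pair of probes that carry the same accession and separated the conditions in opposite directions. The brighter, A_23_P52017, read 1.85, 1.99 and 2.07 on control arrays and 2.38, 2.47 and 2.75 on the others (log2 0.53 ± 0.07, adjusted p = 3.71e-05). The dimmer, A_24_P911179, read -0.81, -0.70 and -0.56 on control arrays and -1.34, -0.96 and -0.91 on the others (log2 -0.37 ± 0.09, adjusted p = 0.00296; -0.12 and not past the threshold under spike-in scaling). Where the probes of ASPM or BUB3 lie in their transcripts was not examined.

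Of the chromosome and passenger genes, TOP2A and MKI67 were higher and BIRC5 was lower. TOP2A, the topoisomerase that untangles sister chromatids, read 1.80, 1.90 and 2.22 on control arrays and 2.41, 2.60 and 2.84 on the others, 1.54-fold higher (log2 0.63 ± 0.10, adjusted p = 0.000161). MKI67, the proliferation marker Ki-67 that coats mitotic chromosomes, rose 1.23-fold. The highest control value and the lowest of the other condition were both -1.28 as rounded, so its separation had almost no gap. The MKI67 call was lost under spike-in scaling (log2 0.545, limma adjusted p = 0.0518) and with normexp (0.071, limma adjusted p = 0.851). BIRC5, the gene of survivin, encodes a subunit of the passenger complex that contains AURKB. It read 6.01, 6.18 and 6.21 on control arrays and 5.65, 5.85 and 5.94 on the others, 1.24-fold lower (log2 -0.32 ± 0.06, limma adjusted p = 0.00061). Under spike-in scaling the BIRC5 difference was -0.07 and not past the threshold. AURKB and BIRC5 thus had opposite signs within that complex.

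Neither cytokinesis gene was higher. ECT2, the exchange factor that activates RhoA at the cleavage site, read 3.35, 3.44 and 3.57 on control arrays and 2.88, 3.05 and 3.18 on the others, 1.35-fold lower (log2 -0.44 ± 0.06, adjusted p = 7.21e-05). A dimmer ECT2 probe did not pass (-0.09), a further ECT2 probe was too dim to be tested, and the call was lost under spike-in scaling (-0.19). ANLN, the scaffold anillin, did not pass (-0.16, adjusted p = 0.287) and differed by 0.14 within slide 1, -0.40 within slide 2 and -0.21 within slide 3.

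Over the 22 alternatives in processing, 9 members passed in the same direction under every one. The 8 that were higher were NEK2, BUB3, MAD2L1, CENPA, KIF20A, NUSAP1, DLGAP5 and TOP2A, each read from its brightest probe or, in the alternative that averages probes, from their mean. PRC1 was the member that was lower, and its difference ranged from -1.10 to -0.82. The share of all named genes that passed under every alternative is not given here, so the 9 have no background to be read against.

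**Figure D5:**
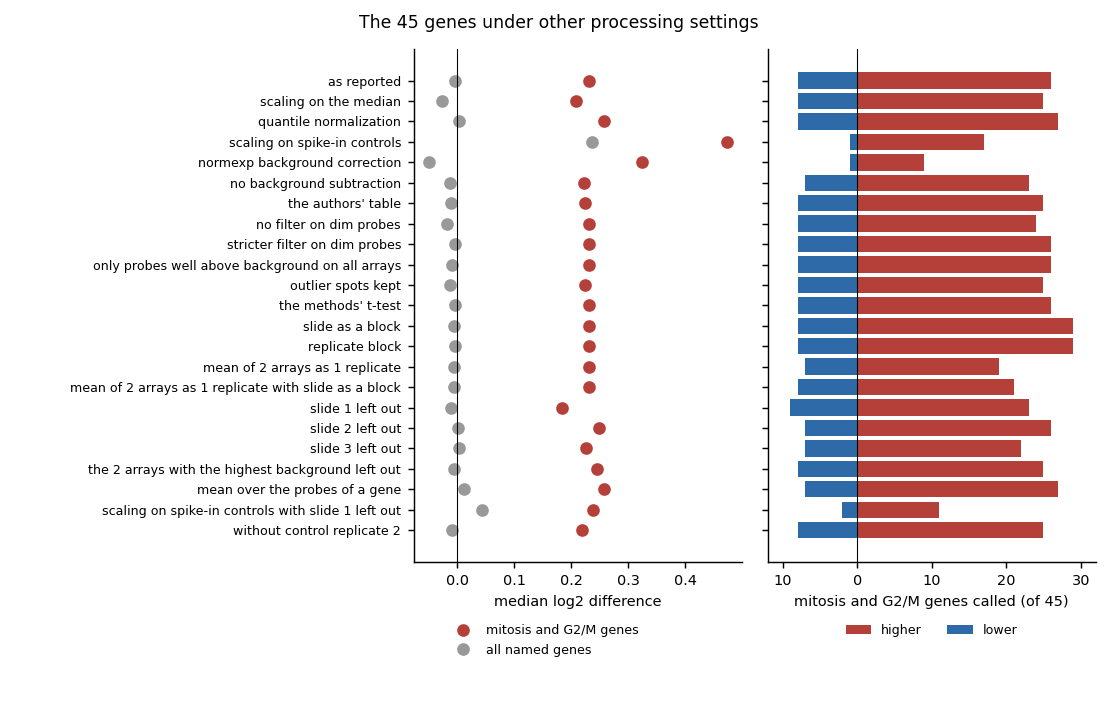
Median log2 difference of the 45 mitosis and G2/M genes and of all named genes (left), and the number of the 45 genes called higher or lower (right), as reported and under the 22 alternatives. The median of the 45 genes lies above that of all genes in each, and the counts drop most with normexp correction (9 higher, 1 lower) and with spike-in scaling. The shares of all named genes called drop there too.

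After removal of each condition's mean, the median Pearson correlation over the 946 pairs of 44 members with a value on all 12 arrays was 0.12, against 0.03 over all pairs of 11314 named genes; with the mean of condition and slide removed it was 0.20 against 0.11. The points of a pair share array, labelling and slide, and these correlations are descriptions without a test. DLGAP5 had the highest median correlation to the other members (0.44) and TPX2 the lowest (-0.34).

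Other genes of mitosis, taken from 6 lists of 117 symbols of which 111 were tested, had 47 higher (42.3%) and 33 lower (29.7%), with a median of 0.08. Of all named genes, 30.5% were higher and 30.2% lower, which is the background for each list below too. At least 2-fold, 3 of the 111 were higher, LIN54 among them, and 3 were lower, beside 2.34% and 2.92% of named genes. The 17 other genes of the anaphase-promoting complex and its regulators had 7 higher and 4 lower (median 0.06), and CDC16, a subunit of the complex, was 2.22-fold lower (log2 mean 1.19 on control arrays, 0.04 on the others, adjusted p = 1.87e-08). Of 30 further kinetochore and centromere genes, 13 were higher and 10 lower (median 0.10). In that list MAD1L1, whose product recruits MAD2 to kinetochores, was 3.65-fold lower (mean -0.32 against -2.19, adjusted p = 1.11e-06), opposite in sign to MAD2L1, and CENPL, of the inner kinetochore, was 2.51-fold higher (mean -2.23 against -0.91, adjusted p = 2.02e-06). Condensin and cohesin had 7 of 15 genes higher and 3 lower, with a median of 0.14. Of 17 other kinesins and spindle proteins, 5 were higher and 6 lower (median 0.01), and NDE1, a dynein partner, was 3.12-fold lower (mean 1.43 against -0.21, adjusted p = 3.19e-07). Other cytokinesis and passenger genes had 4 of 8 higher and 2 lower. The 24 other G2/M regulators had 11 higher and 8 lower (median 0.06). CDCA2, which targets a phosphatase to chromatin, was 2.13-fold higher there (mean 3.18 against 4.26, adjusted p = 2.04e-08). LIN54, the subunit of the MuvB complex that binds CHR elements, is counted among the 11, but its probe was well above background on 2 of 6 control arrays and 6 of 6 others and so passed the filter only through the condition in which it was brighter; its means were -4.59 and -3.11, and no fold is given.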

How the data were processed

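Expression was measured on 12 one-color Agilent 44 k arrays. Per the file headers, the authors deposited Feature Extraction 10.7.3.1 output, in which the processed intensity of each spot is its background-subtracted signal, and a table of log2 values. For kept probes with a value on all 12 arrays, that table equals the values used here up to a constant per array (at most 0.07). It can differ for probes with an outlier spot left out here: the log2 difference of CKS1B was 0.175 here and 0.13 from the authors' table. The methods name GeneSpring GX and a t-test with adjustment.

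Processed intensities were taken to log2, spots of a probe were averaged and each array was scaled by its 75th percentile over gene probes. Control spots and outlier spots were left out. The filter asked for at most 25% missing values and, in either condition, 5 of 6 arrays well above background, and left 24330 of 41000 probes. Between 54.2% and 68.0% of spots were well above background, and the number of arrays limits the precision. Conditions were compared over all kept probes with lmFit and eBayes of limma 3.58.1 (R 4.3.3), with Benjamini-Hochberg adjustment, after the fit had been tested on simulated data; other steps used Python 3.11.15 with numpy 2.4.6, pandas 2.3.3 and scipy 1.17.1. A gene was read from its brightest kept probe. Of 25868 probes with a RefSeq accession, 23958 were named through the GRCh38.p14 gene table; promoter sequences are from RefSeq with that build. The files' own build is hg18, so no coordinates of theirs are given.

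The members and the other mitosis lists were chosen with earlier results of these data known. Full values are given for SRSF2, for members deregulated at least 2-fold, for the largest rise and fall of each role, and for members whose probes were called in opposite directions; other mitosis genes are named at 2-fold. Values for AURKA, KIF20A, MAD2L1, KIF11 and other members outside that rule are given because all 46 are accounted for.

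Both conditions carry replicate numbers 1 to 6 in the labels. The deviations of same-numbered arrays from their condition means correlated at 0.28 to 0.64 (6 pairs), those of other arrays sharing a slide at 0.33 to 0.66, and those of arrays from separate slides at -0.48 to -0.05; the numbers pair the arrays through the slide. The fit had no block, and slide and replicate number as blocks were among 22 alternatives; spike-in scaling without slide 1 and the fit without control array 2 were chosen after seeing the data. The median spot intensity served in normexp and in the setting without background subtraction.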

Additional observations from a re-analysis of the deposited data

Results flagged for a closer look

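In 5 of the 116 sets of arrays examined, a set being the arrays of a condition for a tested probe of a member or of SRSF2, 1 array lay far from the others (a gap of over 0.625 of the range for 6 arrays). Chance flags about 1 in 20 such sets. In 4 of the 5 the array was control array 2, which lies on slide 1 and had the lowest 75th percentile of signal of the 12 arrays (796, against 925 to 1100 on the others). There AURKA read 2.37 (other control arrays 3.00 to 3.11), BUB1 1.04 (1.26 to 1.33), the brighter CENPF probe 3.95 (4.16 to 4.24) and NDC80 2.07 (2.60 to 2.82). Without that array the log2 difference was 0.54 for AURKA (limma adjusted p = 2.8e-06) and 0.19 for BUB1 (adjusted p = 0.011), and the fall of NDC80 was larger (-0.45, adjusted p = 7.22e-05). The fifth was KIF2C on control array 6, which read 2.84 (other control arrays 3.38 to 3.54). What set these arrays apart was not tested.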

How the results depend on the processing

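The 26 mitosis genes that were higher, the 8 that were lower, the 2 deregulated at least 2-fold and the median log2 difference of 0.23 were recomputed under 22 alternatives. Scaling on spike-in controls gave 17 higher, 1 lower, 7 at least 2-fold and a median of 0.47 (21.6% of named genes higher and 5.39% lower). The median of all named genes was 0.24 there, and their share at 2-fold is not given here, so the 7 have no background. With slide 1 also left out, spike-in scaling gave 11 higher, 2 lower, 2 at least 2-fold and a median of 0.24 (12.6% of named genes higher and 12.1% lower). Normexp background correction gave 9 higher, 1 lower, 0 at least 2-fold and a median of 0.33 (6.72% of named genes higher and 6.97% lower). At an unadjusted limma p under 0.05, 0 members reached 2-fold with normexp either. Without background subtraction 1 gene was at least 2-fold, and a 1.5-fold threshold gave 10. The median was 0.18 with slide 1 left out. With slide or the replicate block in the fit, 29 genes were higher and 8 lower. Calls rose over all named genes too, to 36.0% higher and 35.9% lower with slide and 33.8% and 33.6% with the replicate block. The pairing added CKS2, HMMR and KIF23 and changed no other call. These genes did not pass with the slide block on means of 2 arrays (limma adjusted p = 0.164, 0.177 and 0.133). With the mean of 2 arrays as 1 replicate, 19 were higher and 7 lower (19.6% and 20.7% of named genes). BUB1, BUB1B, CKS1B, NDC80, NUF2, SPC25, TPX2 and TTK lost their calls. The 16 members given in full had 352 values under the alternatives: 322 kept their direction and their side of the threshold, 30 kept the direction but did not pass, and 0 turned. Those 30 came from both spike-in scalings and normexp, apart from ASPM, also lost with the mean over probes, and NDC80, also lost there, without background subtraction, without slide 2 or slide 3 and with the mean of 2 arrays as 1 replicate; the cause was not tested. Over all probes, normexp called 2819 and spike-in scaling 7083, against 14042.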
